A study of Homo sapiens with 9 samples.

Results

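The genes described here are mainly those through which SREBP transcription factors keep a cell supplied with cholesterol and fatty acids. A list of 34 symbols was matched to the rows of the deposited table by Ensembl gene identifier. A row was found for 33 of them, and 32 were kept because they reached at least 1 CPM (a gene's reads scaled to 1 common library total) in at least 3 of the 9 libraries. ACACA, which carries out the first committed step of fatty acid synthesis, was matched to no row and was not analysed here. ABCA1, the cholesterol efflux pump, had a row but was below 1 CPM in every library. The kept genes fall by role into 7 genes of the mevalonate and isoprenoid steps, 11 of the steps from squalene to cholesterol, 5 for the SREBP factors and the proteins that hold them back, 4 of sterol uptake and transport, and 5 of fatty acid synthesis.

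All libraries were made from HCT116, an established human colorectal carcinoma cell line grown in McCoy's medium with fetal bovine serum, a source of lipoprotein cholesterol. Cells were reverse transfected with RNAiMAX and a small interfering RNA (siRNA), at 25 nM by the sample annotation. The study's methods give 50 nM for siRNA transfection. The 3 groups of 3 libraries are a commercial non-targeting siRNA, called control, and 2 others, labelled siRNA A and siRNA B, that were designed to deplete SNHG5, a long non-coding RNA. No untransfected library was analysed here, so every group had received the transfection reagent and an siRNA. Polyadenylated RNA was read as single ends of 50 bases. The question asked of the genes below is how each siRNA changed them against control, and how the libraries of siRNA A and siRNA B differed from each other.

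SREBP proteins are made as precursors in the membrane of the endoplasmic reticulum, bound to the escort protein SCAP. When sterols are plentiful, INSIG proteins hold SCAP and its cargo in place. When sterols run low, SCAP carries the precursor to the Golgi, where proteases release the part that enters the nucleus. SREBP-2, from SREBF2, acts mainly on cholesterol genes, and SREBP-1, from SREBF1, mainly on fatty acid genes. INSIG1 and SREBF2 are themselves SREBP targets, while cholesterol export genes such as ABCA1 and the E3 ligase gene MYLIP are driven by the sterol-sensing LXR receptors.

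Library totals ran from 15566530 to 23277549 reads. SNHG5 itself went against the labels. Its CPM was 35.6, 26.3 and 28.6 in the control libraries, 63.9, 50.0 and 61.5 in the libraries labelled siRNA A, and 47.8, 47.7 and 45.2 in those labelled siRNA B. Each of the 6 libraries labelled as depleted thus held more SNHG5 than any control library, and a direction given for a gene compares libraries by their labels only. MALAT1, another abundant long non-coding RNA, had scaled means of 4007 CPM in control, 11988 CPM in siRNA A and 17152 CPM in siRNA B. All 6 epithelial markers on a fixed list were present (EPCAM 179 and KRT8 788 scaled CPM in control). Of 11 markers of other cell types, 3 had a row and ALB and APOA1 were at or near 0, while COL1A1, a collagen gene, had scaled means of 16.7, 11.9 and 9.23 CPM in control, siRNA A and siRNA B. Their part in the results below was not tested. Values called scaled CPM are CPM divided by the TMM factor of the library, a correction for composition whose group means were 1.14 in control, 0.886 in siRNA A and 0.988 in siRNA B. Fold changes are differences in log2(scaled CPM + 1), and a gene is called where limma gave an adjusted p below 0.05 over all 13893 genes tested.

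RefSeq promoter sequences were available for 28 of the 32 kept genes, and the 5 printed here belong to genes on which the results turn: SREBF2 and INSIG1 from the regulators, MSMO1 and HMGCS1, which had the largest differences between the siRNAs among the synthesis enzymes, and ACSS2, which was lower with both. Each is the 250 bases before the start annotated by RefSeq on the GRCh38.p14 build, written 5′ to 3′ on the strand of the gene. These starts were not compared with the GRCh37 gene coordinates given below. SREBF2 lies on the plus strand at chr22:41832855-41833104, INSIG1 on the plus strand at chr7:155297628-155297877, MSMO1 on the plus strand at chr4:165327419-165327668, HMGCS1 on the minus strand at chr5:43313413-43313662 and ACSS2 on the plus strand at chr20:34874739-34874988. Capitals mark matches on either strand to the letters TCACNCCAC (a form of the sterol regulatory element that SREBPs bind), CACGTG (an E-box), CCAAT (the NF-Y box, read as ATTGG on the other strand) and GGGCGG (the GC box of SP1, read as CCGCCC on the other strand).
SREBF2: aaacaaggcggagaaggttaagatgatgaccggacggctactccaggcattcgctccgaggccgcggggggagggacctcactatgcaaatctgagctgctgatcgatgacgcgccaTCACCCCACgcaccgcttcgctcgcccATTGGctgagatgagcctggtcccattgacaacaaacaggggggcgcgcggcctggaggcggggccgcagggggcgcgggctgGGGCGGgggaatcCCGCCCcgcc
INSIG1: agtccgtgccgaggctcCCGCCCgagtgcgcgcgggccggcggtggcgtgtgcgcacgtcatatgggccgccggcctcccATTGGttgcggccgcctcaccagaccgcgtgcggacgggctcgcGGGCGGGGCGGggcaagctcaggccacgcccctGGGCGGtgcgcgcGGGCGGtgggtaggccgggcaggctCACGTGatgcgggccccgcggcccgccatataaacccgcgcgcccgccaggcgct
MSMO1: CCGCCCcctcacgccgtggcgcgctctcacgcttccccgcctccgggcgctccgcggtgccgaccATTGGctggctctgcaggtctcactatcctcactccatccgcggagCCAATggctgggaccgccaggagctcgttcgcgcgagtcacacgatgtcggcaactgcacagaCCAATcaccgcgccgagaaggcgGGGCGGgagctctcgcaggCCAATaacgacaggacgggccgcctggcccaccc
HMGCS1: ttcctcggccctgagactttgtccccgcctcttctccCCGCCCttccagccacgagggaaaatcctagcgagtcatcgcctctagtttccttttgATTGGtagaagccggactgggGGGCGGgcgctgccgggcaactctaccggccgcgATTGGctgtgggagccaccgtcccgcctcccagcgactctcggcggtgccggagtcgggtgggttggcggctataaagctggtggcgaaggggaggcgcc
ACSS2: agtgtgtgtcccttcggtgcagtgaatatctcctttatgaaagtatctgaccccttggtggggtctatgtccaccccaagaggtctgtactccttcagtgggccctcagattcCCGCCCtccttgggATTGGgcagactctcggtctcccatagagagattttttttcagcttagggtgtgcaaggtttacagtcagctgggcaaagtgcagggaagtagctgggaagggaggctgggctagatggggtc

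TCACNCCAC was found in 1 of the 28 promoters, that of SREBF2, where it begins 133 bases before the start, against 0.875% of all 27305 promoters of the table and 0.841% of the 10226 that belong to genes tested here. CCAAT was found in 20 of 28 (71.4%), against 33% of all promoters and 35.1% of those of tested genes. GGGCGG was found in 27 of 28 (96.4%), against 42.3% and 68.1%, and CACGTG in SC5D, SCAP and INSIG1 (10.7%), against 6.49% and 8.91%. MSMO1 held 4 CCAAT boxes, HMGCS1 held 2, and SREBF2, INSIG1 and ACSS2 held 1 each. These are matches of letters in a window of fixed length, and no binding was measured.

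In the libraries of siRNA A most of the pathway was higher than in control. Of the 32 genes, 21 rose, where 23.9% of all tested genes rose, and 5 fell, where 27.6% of all tested genes fell. The groups did not overlap for 27 of the 32, where the same held for 59.5% of all tested genes. The median log2 fold change of the 32 genes was 0.47, beside −0.02 for all tested genes, and single genes ran from −0.99 (ACSS2) to 1.67 (MSMO1). Since each library is RNA of pooled cells, fewer cells in a given state and less RNA per cell cannot be told apart. The rise was found in 4 of the 7 mevalonate genes, 9 of the 11 genes from squalene to cholesterol and 4 of the 5 fatty acid genes. The 5 that fell were PMVK, TM7SF2, INSIG2, MYLIP and ACSS2. Scaling by library totals alone, which moved the median of all tested genes to −0.34, gave 10 higher and 9 lower with a median of 0.11 for the 32 genes.

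The libraries of siRNA B did not show that pattern. Against control, 2 of the 32 genes rose (SC5D and NPC1), where 15.6% of all tested genes rose, and 7 fell, where 18.3% of all tested genes fell. The groups did not overlap for 11 genes, where 47.6% of all tested genes did not. The median log2 fold change was −0.14, beside 0.0043 for all tested genes, and values ran from −0.89 (ACSS2) to 0.43 (SC5D). The 7 that fell were MVK, PMVK, LSS, DHCR7, SREBF2, MYLIP and ACSS2. With library totals alone, which moved the median of all tested genes to −0.18, none was called higher and 14 lower. The 2 calls upward did not hold in every fit that left out 1 library. The count of genes called higher fell to 0 without control 1, control 2, siRNA B 1 or siRNA B 2.

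Both comparisons use the same control libraries, so a direct contrast of siRNA A with siRNA B was fitted too. Of the 32 genes, 20 were higher with siRNA A than with siRNA B, where 17.6% of all tested genes were, and 2 were lower (TM7SF2 and SREBF1), where 19.5% were. The groups did not overlap for 27 genes, where 47.6% of all tested genes did not. The median difference was 0.61, beside −0.01 for all tested genes, and the largest were those of MSMO1 (1.81), SREBF2 (1.61), HMGCS1 (1.50), INSIG1 (1.31) and SQLE (1.22). With library totals alone, 16 were higher and 4 lower, and LSS, STARD4, TMEM97 and SCD were the 4 no longer called higher. Leaving out siRNA A 3 took the count of lower genes to 1.

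**Figure D1:**
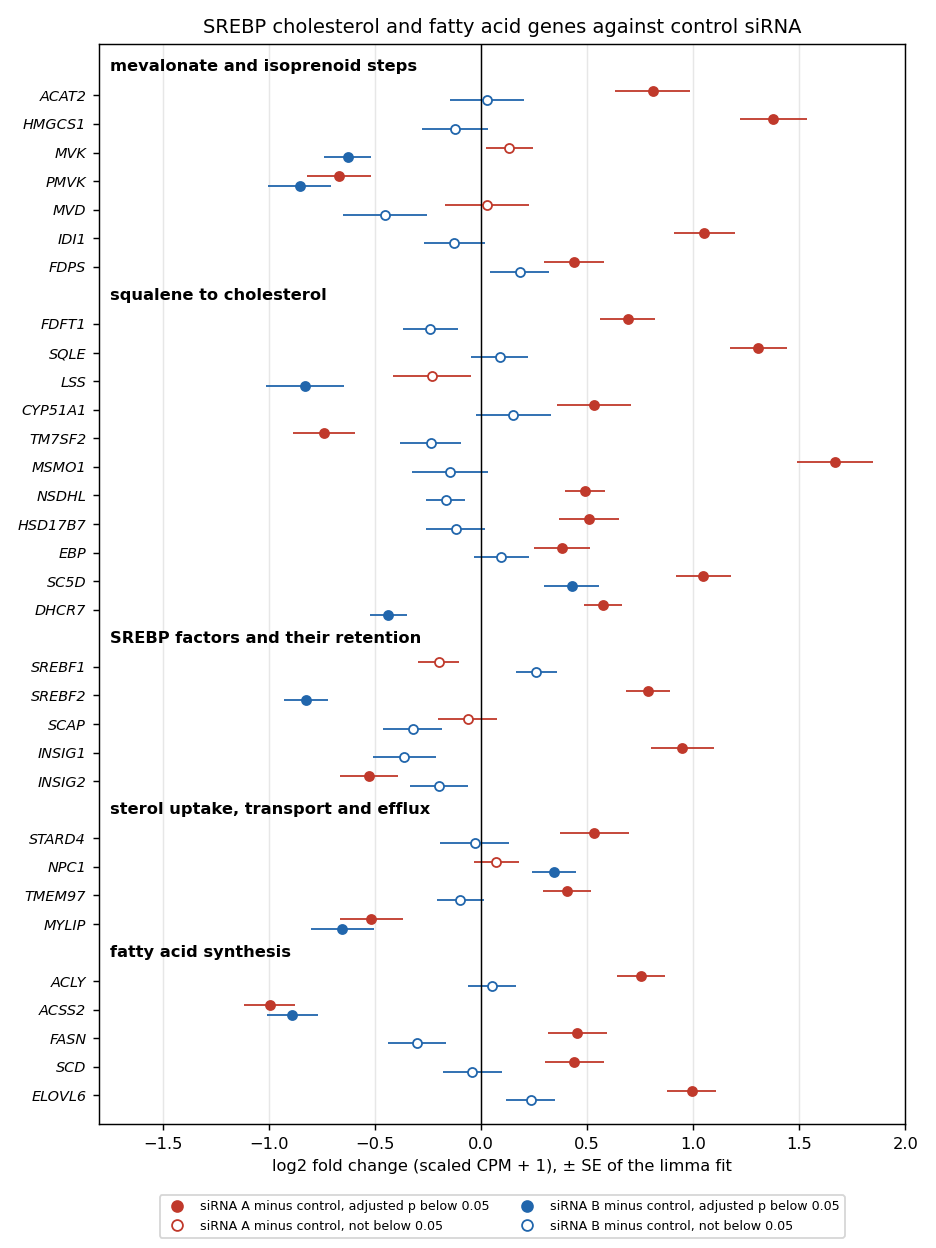
Log2 fold change on scaled CPM + 1 (x axis, points with bars of ± 1 SE from the limma fit) of the 32 kept genes, in blocks by role, for siRNA A against control (red) and siRNA B against control (blue), with filled points where the adjusted p is below 0.05. With siRNA A 21 genes are filled to the right of 0 and 5 to the left, and with siRNA B 2 to the right and 7 to the left; with library totals alone the counts are 10 and 9, and 0 and 14.

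The 2 SREBP genes moved apart between the siRNAs. SREBF2, which encodes SREBP-2 (ENSG00000198911.7, GRCh37 chr22:42229109-42303310), had scaled CPM of 140, 135 and 167 in control, 242, 249 and 271 in siRNA A, and 82.4, 79.7 and 84.8 in siRNA B. Every siRNA A library lay above every control library, and every siRNA B library below. SREBF2 rose 1.73-fold with siRNA A (log2 0.79 ± 0.10 SE, limma adjusted p = 9.64e-05) and fell with siRNA B (log2 −0.82 ± 0.10, limma adjusted p = 0.000147), and the direct difference between the siRNAs was 3.09-fold (log2 1.61 ± 0.10, limma adjusted p = 3.48e-06). All 3 calls passed in each of the 18 alternative settings run.

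SREBF1, which encodes SREBP-1 (ENSG00000072310.12, chr17:17713713-17740316), was ordered the other way. Its scaled CPM was 96.0, 95.1 and 113 in control, 85.2, 86.8 and 92.3 in siRNA A, and 121, 118 and 125 in siRNA B, so that no group overlapped another. It was lower with siRNA A than with siRNA B (log2 −0.46 ± 0.10, limma adjusted p = 0.00355). Neither difference from control passed the test: log2 was −0.20 ± 0.10 with siRNA A (limma adjusted p = 0.107) and 0.26 ± 0.10 with siRNA B (limma adjusted p = 0.0567). With the replicate number as a block in a fit of the 6 libraries compared, the siRNA A difference passed at −0.20 (limma adjusted p = 0.0323, with 0.000633 to 0.34 over all 18 alternatives). Without control 3 the siRNA B difference passed at 0.32. Reads of SREBF1 and of the oppositely oriented RAI1, whose exons overlap it, could not be told apart unless counting used strand, which the sources used here do not give; the same holds for SREBF2 and its antisense gene SREBF2-AS1.

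Of the proteins that hold the precursors back, the paralogs INSIG1 and INSIG2 differed. INSIG1 (ENSG00000186480.8, chr7:155089486-155101945) had scaled CPM of 42.9, 34.2 and 47.5 in control, 79.3, 80.3 and 81.6 in siRNA A, and 32.0, 38.5 and 26.2 in siRNA B. The siRNA A libraries were close to each other and far above all 6 others, while those of siRNA B overlapped control. INSIG1 rose 1.93-fold with siRNA A (log2 0.95 ± 0.15, limma adjusted p = 0.000301) and was 2.49-fold higher than with siRNA B (log2 1.31 ± 0.15, limma adjusted p = 8.35e-05). Its log2 difference with siRNA B was −0.36 ± 0.15 (limma adjusted p = 0.0798), which passed without control 2 (−0.51) or without siRNA B 2 (−0.49). INSIG2 (ENSG00000125629.10, chr2:118846028-118868573) had scaled CPM of 10.4, 9.82 and 12.3 in control, 7.23, 6.73 and 7.61 in siRNA A, and 11.1, 8.46 and 8.50 in siRNA B. It fell with siRNA A, whose libraries were the 3 lowest (log2 −0.53 ± 0.14, limma adjusted p = 0.00745), and siRNA B overlapped control (log2 −0.20 ± 0.14, limma adjusted p = 0.296).

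SCAP, the escort (ENSG00000114650.14, chr3:47455171-47518616), had scaled CPM of 49.6, 70.5 and 57.2 in control, 52.2, 64.2 and 52.4 in siRNA A, and 44.1, 51.7 and 44.4 in siRNA B. Both siRNA groups overlapped control. The log2 differences were −0.06 ± 0.14 with siRNA A (limma adjusted p = 0.729) and −0.32 ± 0.14 with siRNA B (limma adjusted p = 0.0928), and the latter passed without control 1 (−0.45). With library totals alone SCAP was called lower with siRNA A (−0.42) and with siRNA B (−0.53).

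**Figure D2:**
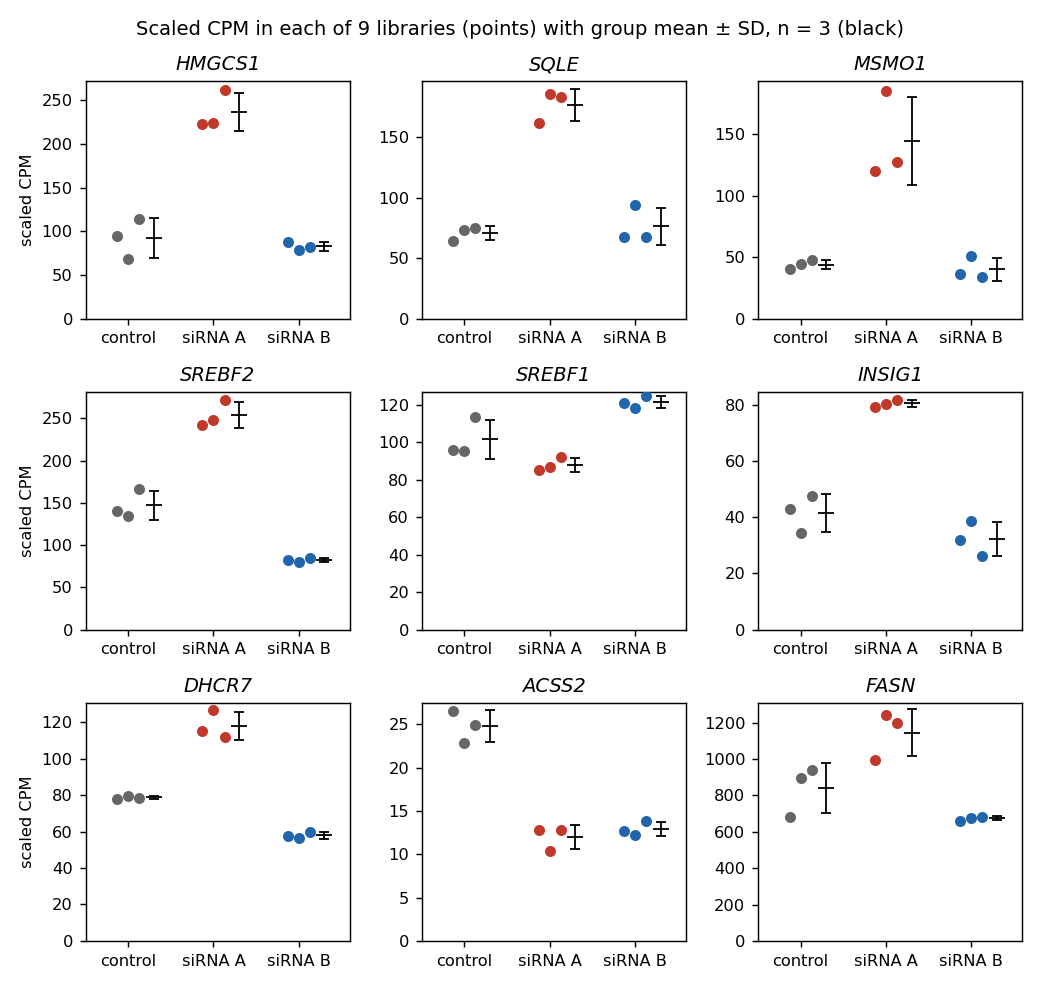
Scaled CPM (y axis, from 0) of 9 named genes in each of the 9 libraries (points, by group on the x axis), with the group mean ± SD in black (n = 3). HMGCS1, SQLE, MSMO1 and INSIG1 are high in the 3 siRNA A libraries with control and siRNA B overlapping, SREBF2 and DHCR7 lie above control with siRNA A and below it with siRNA B, and ACSS2 is low in both siRNA groups.

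The first part of the pathway turns acetyl-CoA into the isoprenoid units from which sterols are built. HMGCS1, which makes HMG-CoA (ENSG00000112972.10, chr5:43287572-43313614), had scaled CPM of 94.4, 68.3 and 114 in control, 223, 225 and 263 in siRNA A, and 88.3, 78.6 and 82.1 in siRNA B. The siRNA A libraries were all at least 223, and those of siRNA B lay within the control range. HMGCS1 rose 2.57-fold with siRNA A (log2 1.38 ± 0.16, limma adjusted p = 4.07e-05), and its log2 difference with siRNA B was −0.12 ± 0.16 (limma adjusted p = 0.586). IDI1, which isomerises the unit to the form that starts chain growth (ENSG00000067064.6, chr10:1085092-1095059), had scaled CPM of 75.8, 55.0 and 73.7 in control, 149, 125 and 151 in siRNA A, and 66.3, 53.2 and 66.9 in siRNA B. It rose 2.08-fold with siRNA A (log2 1.05 ± 0.14, limma adjusted p = 0.000124) and overlapped control with siRNA B (log2 −0.12 ± 0.14, limma adjusted p = 0.535). ACAT2, which joins the first acetyl-CoA pair, also rose with siRNA A (log2 0.81), as did FDPS, which makes farnesyl diphosphate (log2 0.44). The FDPS call was lost without control 2 (0.30) and without siRNA A 1 (0.37).

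The kinases between these steps did not follow. PMVK, phosphomevalonate kinase (ENSG00000163344.5, chr1:154897216-154909195), had scaled CPM of 15.0, 12.3 and 10.4 in control, 8.08, 7.33 and 6.97 in siRNA A, and 5.59, 6.33 and 7.50 in siRNA B. All 6 siRNA libraries were below all 3 controls. PMVK fell with siRNA A (log2 −0.67 ± 0.15, limma adjusted p = 0.00308) and with siRNA B (log2 −0.85 ± 0.15, limma adjusted p = 0.00126), in each of the 18 alternatives. MVK, mevalonate kinase, fell with siRNA B (log2 −0.63) and had a log2 difference of 0.13 with siRNA A, −0.22 with library totals alone; neither of those values for siRNA A passed the test. MVD, the decarboxylase that follows, had differences of 0.03 with siRNA A (−0.33 with library totals alone) and −0.45 with siRNA B, of which the last passed without control 2 (−0.63). Between the siRNAs MVD differed by 0.48, which did not pass the test and passed without siRNA A 2 (0.64) or siRNA B 3 (0.62).

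From squalene to cholesterol, MSMO1 and SQLE rose most with siRNA A. SQLE, squalene epoxidase, which is a rate-limiting step of the pathway (ENSG00000104549.7, chr8:126010739-126034525), had scaled CPM of 64.3, 73.4 and 75.3 in control, 162, 186 and 183 in siRNA A, and 67.9, 93.9 and 67.2 in siRNA B. The siRNA A libraries lay above all others, and siRNA B overlapped control, with siRNA B 2 the highest of those 6. SQLE rose 2.49-fold with siRNA A (log2 1.31 ± 0.13, limma adjusted p = 2.05e-05), and its log2 difference with siRNA B was 0.09 ± 0.13 (limma adjusted p = 0.645; −0.12 with library totals alone). MSMO1, the sterol C4-methyl oxidase (ENSG00000052802.8, chr4:166248819-166264316), had scaled CPM of 40.3, 44.2 and 47.4 in control, 120, 185 and 127 in siRNA A, and 36.3, 50.6 and 33.5 in siRNA B. Its rise of 3.28-fold with siRNA A was the largest of the 32 genes (log2 1.67 ± 0.18, limma adjusted p = 2.70e-05), although siRNA A 2 stood well above the other two. With siRNA B it overlapped control (log2 −0.15 ± 0.18, limma adjusted p = 0.561).

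SC5D, the sterol C5-desaturase (ENSG00000109929.5, chr11:121163390-121184119), was called higher with each siRNA. Its scaled CPM was 29.9, 32.7 and 34.6 in control, 64.0, 71.3 and 68.7 in siRNA A, and 46.0, 51.1 and 35.8 in siRNA B. The groups did not overlap, with siRNA B 3 close to the highest control. SC5D rose 2.10-fold with siRNA A (log2 1.05 ± 0.13, limma adjusted p = 6.63e-05) and was higher with A than with B (log2 0.62 ± 0.13, limma adjusted p = 0.00327). It also rose 1.37-fold with siRNA B (log2 0.43 ± 0.13, limma adjusted p = 0.0237). This last rise against control was no longer called without control 1 (0.36), control 2 (0.42), siRNA B 1 (0.39) or siRNA B 2 (0.32), and with library totals alone (0.22); its adjusted p ran from 0.00461 to 0.218 over the alternatives.

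LSS and TM7SF2 were the 2 genes of this block not called higher with siRNA A. LSS, which closes the sterol rings to give lanosterol (ENSG00000160285.9, chr21:47608055-47648738), had scaled CPM of 38.2, 34.4 and 42.2 in control, 36.2, 23.7 and 39.4 in siRNA A, and 22.9, 17.2 and 23.5 in siRNA B. It fell with siRNA B, whose libraries were below all others (log2 −0.83 ± 0.18, limma adjusted p = 0.00478), and overlapped control with siRNA A (log2 −0.23 ± 0.18, limma adjusted p = 0.311), where it was called lower with library totals alone (−0.59). Its difference between the siRNAs (log2 0.60, limma adjusted p = 0.0234) was lost without siRNA A 1 (0.52), siRNA A 3 (0.46) or siRNA B 2 (0.46), and with library totals alone (0.45). TM7SF2, a sterol C14-reductase (ENSG00000149809.10, chr11:64879317-64883856), had scaled CPM of 10.0, 8.12 and 7.99 in control, 5.21, 4.84 and 4.34 in siRNA A, and 5.95, 8.07 and 7.76 in siRNA B. The 3 lowest libraries were those of siRNA A, and TM7SF2 fell there (log2 −0.74 ± 0.14, limma adjusted p = 0.00131) while siRNA B overlapped control (log2 −0.24 ± 0.14, limma adjusted p = 0.231). The difference between the siRNAs (log2 −0.50, limma adjusted p = 0.0177) was lost without siRNA A 3 (−0.45) or siRNA B 3 (−0.46). Exons of TM7SF2 overlap VPS51 on the same strand, and how reads from the shared stretch were counted is not known.

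The other 6 genes of this block all rose with siRNA A. FDFT1, squalene synthase, rose by a log2 of 0.69, DHCR7, a late sterol reductase, by 0.58, CYP51A1, the lanosterol demethylase, by 0.53, HSD17B7, the 3-ketosteroid reductase, by 0.51, NSDHL, the C4-decarboxylase, by 0.49, and EBP, the sterol isomerase, by 0.38. With the rises of SQLE, MSMO1 and SC5D this makes 9 of 11 genes. CYP51A1 was the lowest kept gene, at 47 reads in its lowest library, and shares exons with other annotated genes on both strands. Its call was lost without control 1 (0.36) or siRNA A 3 (0.41), and that of EBP without control 2 (0.27), siRNA A 1 (0.29) or siRNA A 3 (0.40). DHCR7 moved in opposite directions with the siRNAs: it fell with siRNA B (log2 −0.44), and its groups did not overlap. The siRNA B values of the remaining 5 lay between −0.24 (FDFT1) and 0.15 (CYP51A1), none past the test, and that of FDFT1 passed without control 2 (−0.41).

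Genes of sterol uptake and transport gave a mixed picture. STARD4, a cytosolic sterol carrier, and TMEM97, a sterol-responsive membrane protein that binds NPC1, rose with siRNA A (log2 0.53 and 0.40) and had values of −0.03 and −0.10 with siRNA B. The STARD4 call was lost without control 1 (0.40), siRNA A 2 (0.48) or siRNA A 3 (0.50), and that of TMEM97 without control 3 (0.34). Between the siRNAs STARD4 differed by 0.56, lost without siRNA A 2 (0.51), siRNA A 3 (0.53) or siRNA B 3 (0.40), and with library totals alone (0.41), which also ended the call of TMEM97 between the siRNAs (0.50, then 0.35). NPC1, which moves cholesterol out of lysosomes (ENSG00000141458.7, chr18:21086148-21166470), had scaled CPM of 57.9, 65.5 and 63.6 in control, 61.3, 65.6 and 70.0 in siRNA A, and 79.2, 87.7 and 71.9 in siRNA B. The siRNA B libraries were the 3 highest, and NPC1 rose there (log2 0.34 ± 0.10, limma adjusted p = 0.0246), but this call was lost without any 1 of the controls (0.29, 0.36 and 0.34 without control 1, 2 and 3), without siRNA B 1 (0.34) or siRNA B 2 (0.27), and with library totals alone (0.14). With siRNA A the log2 difference was 0.07 ± 0.10 (limma adjusted p = 0.584), and −0.29, called lower, with library totals alone. Its difference between the siRNAs (−0.27, limma adjusted p = 0.0604) passed without siRNA B 3 (−0.34).

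MYLIP and ABCA1 are targets of LXR, not of SREBP. MYLIP, the ligase that marks lipoprotein receptors for degradation (ENSG00000007944.10, chr6:16129317-16148479), had scaled CPM of 7.74, 5.78 and 8.04 in control, 4.25, 4.61 and 5.20 in siRNA A, and 4.70, 4.07 and 3.77 in siRNA B. All 6 siRNA libraries were below control, and MYLIP fell with siRNA A (log2 −0.52 ± 0.15, limma adjusted p = 0.0118) and with siRNA B (log2 −0.65 ± 0.15, limma adjusted p = 0.00546). Without control 3 the siRNA A value (−0.45) was no longer called. ABCA1 had CPM of 0.18, 0.57 and 0.72 in control, 0.38, 0.26 and 0.34 in siRNA A, and 0.97, 0.92 and 0.73 in siRNA B. These are 4 to 21 reads a library, too few for the filter, and no test was made.

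Fatty acid synthesis starts from acetyl-CoA, which ACLY makes from citrate and ACSS2 from acetate, and these parallel sources moved oppositely with siRNA A. ACSS2 (ENSG00000131069.15, chr20:33459949-33515765) had scaled CPM of 26.5, 22.9 and 24.9 in control, 12.8, 10.4 and 12.8 in siRNA A, and 12.7, 12.3 and 13.8 in siRNA B. All 6 siRNA libraries lay well below all 3 controls. ACSS2 fell 2.07-fold with siRNA A (log2 −0.99 ± 0.12, limma adjusted p = 5.81e-05) and 1.92-fold with siRNA B (log2 −0.89 ± 0.12, limma adjusted p = 0.000243), the lowest value of the 32 genes in both comparisons, and the siRNAs differed by −0.10 ± 0.12 (limma adjusted p = 0.521). ACLY rose with siRNA A (log2 0.75) and had a value of 0.05 with siRNA B, −0.16 with library totals alone.

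FASN, the synthase that builds palmitate (ENSG00000169710.6, chr17:80036214-80056170), had scaled CPM of 682, 896 and 942 in control, 997, 1240 and 1199 in siRNA A, and 662, 678 and 683 in siRNA B. The siRNA A libraries were above the others, and the siRNA B libraries were all near the lowest control. FASN rose 1.36-fold with siRNA A (log2 0.45 ± 0.14, limma adjusted p = 0.0160), with a siRNA B difference of −0.30 ± 0.14 (limma adjusted p = 0.110), and was higher with siRNA A than with siRNA B (log2 0.76 ± 0.14, limma adjusted p = 0.00147). The rise was lost without control 1 (0.31), siRNA A 2 (0.40) or siRNA A 3 (0.42), and the siRNA B difference passed without control 1 (−0.45). SCD, the stearoyl-CoA desaturase (ENSG00000099194.4, chr10:102106990-102124583), had scaled CPM of 740, 711 and 956 in control, 1006, 999 and 1248 in siRNA A, and 720, 814 and 789 in siRNA B. It rose 1.35-fold with siRNA A (log2 0.44 ± 0.14, limma adjusted p = 0.0198) and overlapped control with siRNA B (log2 −0.04 ± 0.14, limma adjusted p = 0.851). This rise was lost without control 1 (0.39), control 2 (0.35) or siRNA A 3 (0.34), and the difference between the siRNAs (0.48) without siRNA A 3 (0.37) or siRNA B 1 (0.43) and with library totals alone (0.32). ELOVL6, which extends palmitate, rose with siRNA A (log2 0.99) and had a value of 0.23 with siRNA B that did not pass the test.

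Levels between genes can be set side by side per kilobase of exon. The length used joins the exons of all annotated transcripts of a gene, so the order of genes depends on it. In control, SCD (153 scaled CPM per kb), FASN (90.1) and ACLY (67.7), all of fatty acid synthesis, were the highest of the 32, and HSD17B7 (1.04) and CYP51A1 (0.641) the lowest. SREBF2 was at 18.3 and SREBF1 at 12.3. In all, the 32 genes took 0.371% to 0.428% of the reads of a control library, 0.436% to 0.507% of a siRNA A library and 0.303% to 0.324% of a siRNA B library. These ranges are unscaled and do not overlap, with siRNA A above control and siRNA B below it. SCD and FASN, with the most reads, weigh most in these sums. Unscaled FASN was 776 to 1068 CPM in control, 891 to 1097 in siRNA A and 643 to 685 in siRNA B. SCD was 842 to 1055, 849 to 1141 and 745 to 773, so for both genes siRNA A overlapped control and siRNA B lay below it.

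**Figure D3:**
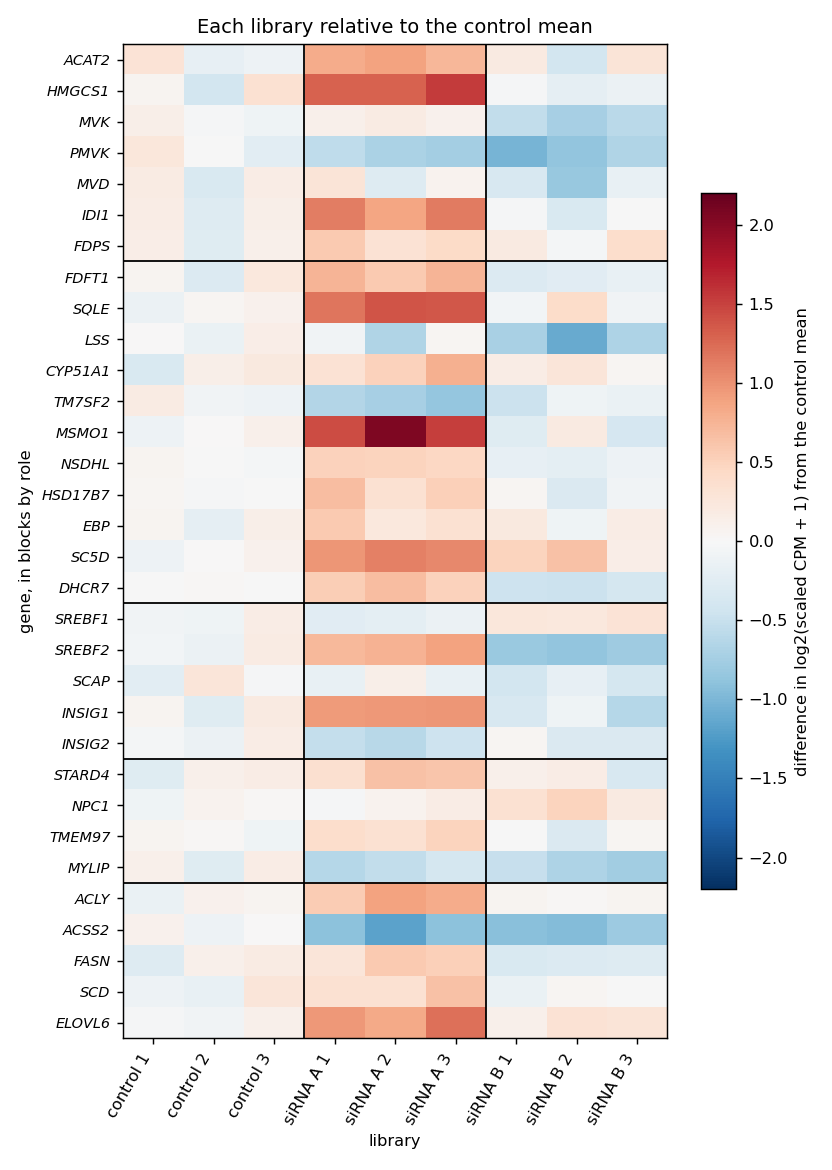
Difference in log2(scaled CPM + 1) from the control mean (colour) for the 32 kept genes (rows, in blocks by role) in each of the 9 libraries (columns). The 3 siRNA A columns are red for most sterol and fatty acid genes, with PMVK, TM7SF2, INSIG2, MYLIP and ACSS2 blue. The siRNA B columns are mostly pale with MVK, PMVK, LSS, SREBF2, MYLIP and ACSS2 blue. DHCR7, also called lower with siRNA B, is paler there (log2 −0.44). The paler red genes, such as EBP and FDPS, are not called with library totals alone.

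The counts with siRNA A rested in part on the scaling. With library totals alone the 10 genes still called higher were HMGCS1, IDI1, FDFT1, SQLE, MSMO1, SC5D, SREBF2, INSIG1, ACLY and ELOVL6. These 10 also passed in every other alternative run. The 11 no longer called had values between 0.02 (EBP) and 0.44 (ACAT2), and the genes newly called lower were LSS, SREBF1 (−0.56), SCAP and NPC1. All 5 that fell with siRNA A were still called with library totals alone, as were all 7 that fell with siRNA B. The distance of the members' median from the median of all tested genes changed little, from 0.49 to 0.45 with siRNA A, from −0.14 to −0.16 with siRNA B, and from 0.62 to 0.61 between the siRNAs.

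**Figure D4:**
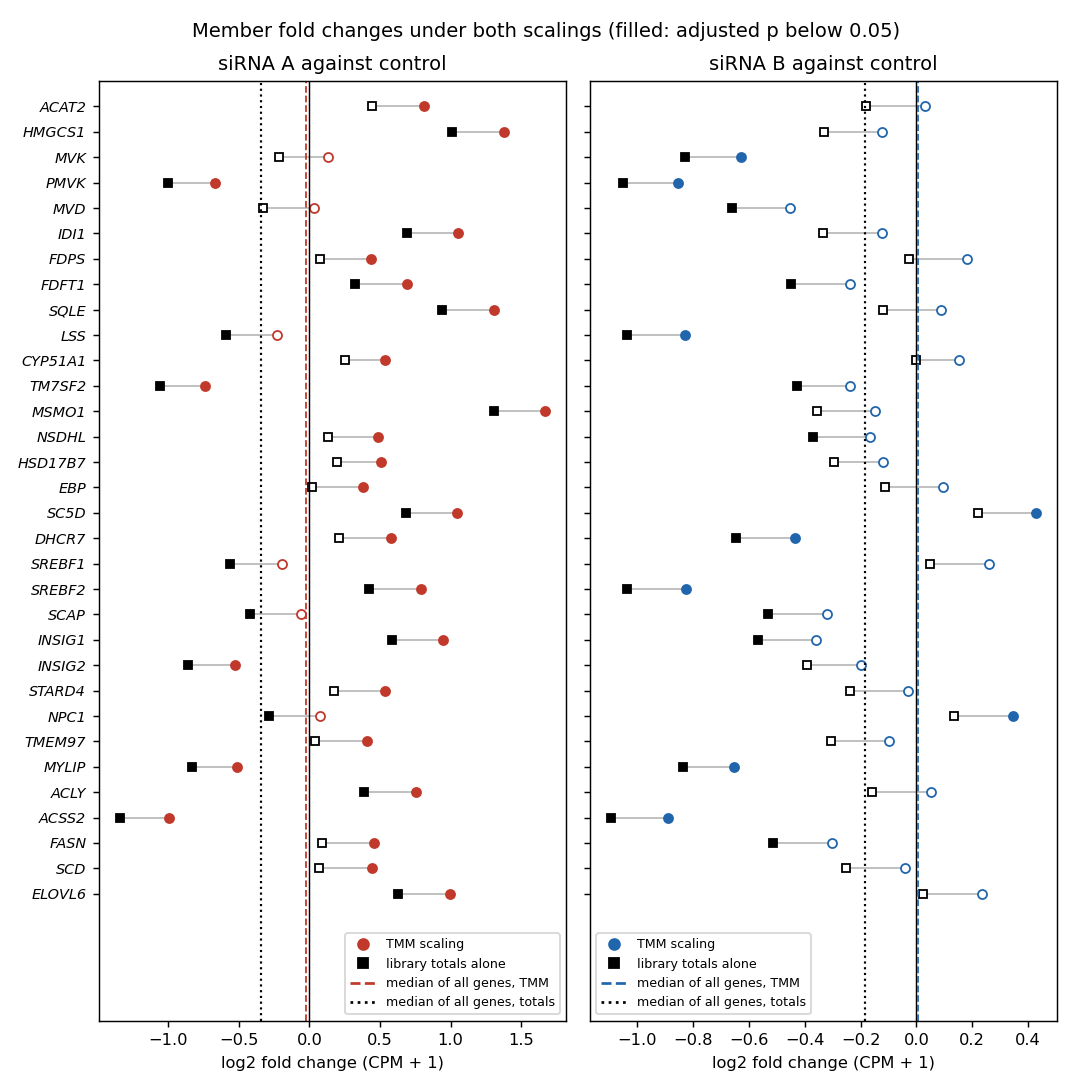
Log2 fold change on CPM + 1 (x axis) of the 32 kept genes (y axis) against control for siRNA A (left) and siRNA B (right), under TMM scaling (coloured circles) and library totals alone (black squares), filled where the adjusted p is below 0.05, with vertical lines at the medians of all tested genes. Totals alone move every gene to the left along with the median, which goes from −0.02 to −0.34 with siRNA A and from 0.0043 to −0.18 with siRNA B.

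A further 5 lists of genes around the pathway were read from the same fit, and each count is to be set beside the shares of all tested genes, 23.9% higher and 27.6% lower with siRNA A and 15.6% and 18.3% with siRNA B. Of 14 genes for SREBP processing and degradation, 6 rose (42.9%) and 3 fell (21.4%) with siRNA A (median log2 0.10), and the largest rise was that of RNF139 (0.62), a ligase of the endoplasmic reticulum. With siRNA B, 2 rose (14.3%, near the share of all genes) and none fell, led by UBE2G2 (0.64), a ubiquitin-conjugating enzyme, and 4 of the 14 had an unadjusted limma p below 0.05. Of 9 electron donors and partners of the sterol enzymes, 5 rose (55.6%) and 1 fell (11.1%) with siRNA A (median 0.44), with PGRMC1 (0.82), a heme-binding partner of cytochromes P450, and CYB5B (−0.78), a cytochrome b5, as the largest. With siRNA B, 1 rose (11.1%) and 3 fell (33.3%), with PGRMC1 (0.73) and ERG28 (−0.56), a scaffold of the sterol C4-demethylation enzymes.

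The isoprenoid branch, which uses farnesyl diphosphate for purposes other than sterols, had 2 genes higher and 3 lower of 15 with each siRNA (13.3% and 20%, below the shares of all tested genes with siRNA A and near them with siRNA B; medians −0.10 and −0.01). Its largest rise was RABGGTB, a subunit of the Rab geranylgeranyl transferase, with both siRNAs (1.83 and 1.05). RABGGTB hosts small nucleolar RNAs in its introns and overlaps ACADM, and how reads from the shared stretches were counted is not known. The partner subunit RABGGTA had the largest fall with siRNA A (−0.48), and COQ2, of ubiquinone synthesis, with siRNA B (−0.77).

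Of 19 genes for sterol transport, storage and LXR, 16 were tested, of which 3 rose (18.8%) and 9 fell (56.2%) with siRNA A (median −0.38), where 23.9% and 27.6% of all tested genes did. The largest were OSBPL9 (0.55), an oxysterol-binding protein relative, and NR1H3 (−1.08), which encodes an LXR receptor. With siRNA B, 4 rose and 4 fell (25% each, where 15.6% and 18.3% of all tested genes did; median −0.29), with GRAMD1B (1.17), a sterol carrier at membrane contacts, and LIPA (−0.89), the lysosomal acid lipase, as the largest. Of 25 genes of fatty acid elongation, desaturation, activation and glycerolipid synthesis, 8 rose (32%) and 5 fell (20%) with siRNA A (median 0.07), and 5 rose (20%) and 4 fell (16%) with siRNA B (median 0.09), all near the shares of all tested genes. DGAT2, of triglyceride synthesis, had the largest rise with both (0.66 and 0.79) from a control mean of 1.52 scaled CPM, and the largest falls were those of ACACB (−0.95), an acetyl-CoA carboxylase of mitochondria, and GPAM (−0.90), the first enzyme of glycerolipid synthesis. All list counts are relative to TMM scaling, under which the medians of all tested genes were near 0.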

How the data were processed

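HCT116 cells were profiled by RNA sequencing in 9 libraries, 3 per group, grouped and numbered by their titles. The study's methods call the replicates biological. The submitters' processing notes name TopHat2, HTSeq and the builds GRCh37 and hg19, and use of strand is not given in the sources used here. The authors deposited 1 table of CPM, with 15354 rows and no scaling beyond the library total. All values (100%, within 0.01 of a read) were whole multiples of 1 read, so reads were recovered. The rows held 99.9% of the recovered totals.

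Values were scaled by TMM (edgeR 4.0.16) and tested, two-sided, with limma 3.58.1 with a mean-variance trend (R 4.3.3) on log2(scaled CPM + 1), which understates changes of low genes. The 9 libraries entered 1 fit of group means. The 13893 genes that reached 1 CPM in 3 or more libraries were tested, with Benjamini-Hochberg adjustment over all of them and a threshold of 0.05. The tests had been planned for CPM. Alternatives were library totals alone, median-of-ratios size factors, a pseudocount of 0.1, no filter, only the 6 libraries compared, edgeR's quasi-likelihood test and DESeq2 1.42.0 on recovered reads, the replicate number as a block, and each of the 9 libraries left out. The scripts were tested on simulated counts. With 3 libraries a group, p-values set a difference against the spread within the groups of these 9 libraries, with information shared across genes.

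The members and lists were chosen with earlier results of these data known. A member was described in full if it was among the 5 largest called changes in a direction in any of 3 comparisons, or was SREBF1, SREBF2, SCAP, INSIG1, INSIG2, HMGCS1, SQLE, ACACA, FASN, SCD, ABCA1 or MYLIP. The others are given by log2 fold changes, and of each other list the largest called rise and fall against control. One result that this rule would name is not reported here. Outside these, SNHG5, MALAT1 and markers were named. Gene coordinates are from GENCODE lifted to GRCh37, and promoters from RefSeq. Exons of 18 of the 32 kept genes overlap those of another annotated gene.

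Deviations from the group means of same-numbered control and siRNA A libraries correlated across genes at 0.65, 0.41 and 0.13. Those numbers were therefore taken as pairs from the data, but the main fit of group means did not use them. Replicate number entered only the alternatives with a block, and all other p-values are unpaired. Between control and siRNA B the values were 0.17, 0.44 and −0.39, and between siRNA A and siRNA B 0.20, 0.44 and 0.02. These numbers were not taken as pairs. Differently numbered control and siRNA B libraries ran from −0.64 (control 1 and siRNA B 2) to 0.68 (control 1 and siRNA B 3). Those of siRNA A and siRNA B ran from −0.59 (siRNA A 1 and siRNA B 2) to 0.59 (siRNA A 1 and siRNA B 3). What such libraries shared was not tested.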

Additional observations from a re-analysis of the deposited data

How the results depend on the processing

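Of the alternatives, library totals alone changed most. The genes called higher and lower then numbered 10 and 9 with siRNA A (median 0.11), 0 and 14 with siRNA B (median −0.34), and 16 and 4 between the siRNAs (median 0.46). Genes whose sign changed under it were MVK (−0.22), MVD (−0.33) and NPC1 (−0.29) with siRNA A, and ACAT2 (−0.18), FDPS (−0.027), SQLE (−0.12), CYP51A1 (−0.0031), EBP (−0.11) and ACLY (−0.16) with siRNA B, of which only that of NPC1 was called. Median-of-ratios factors, the other pseudocount, no filter, the 6-library fit, edgeR and DESeq2 kept every call of the 32 genes. Over all tested genes, edgeR on the recovered reads called 3335 higher and 3825 lower with siRNA A, 2221 and 2559 with siRNA B, and 2418 and 2687 between the siRNAs. SREBF1 with siRNA B also passed with median-of-ratios factors, no filter and DESeq2, and MVD between the siRNAs with DESeq2.

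With the replicate block the counts were 21 and 5 with siRNA A, 3 and 9 with siRNA B, and 23 and 3 between the siRNAs. This block also joined siRNA B libraries by number, although those numbers were not taken as pairs. No call was lost, and MVD (−0.45), SREBF1 (0.26) and SCAP (−0.32) with siRNA B and MVD (0.48), EBP (0.29), SCAP (0.26) and NPC1 (−0.27) between the siRNAs were gained. The block in fits of 6 libraries, chosen after seeing the data, called 21 and 6, 2 and 9, and 21 and 2.

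Leaving out 1 library at a time, the count of genes higher with siRNA A ran from 16 (without siRNA A 3) to 21, with 17 without control 1 and 18 without control 2, that of genes higher with siRNA B from 0 to 2, that of genes lower with siRNA A than with siRNA B from 1 to 2, the siRNA B median from −0.20 to −0.13 and the median between the siRNAs from 0.55 to 0.66. Signs changed for uncalled differences. With siRNA A the ranges were −0.15 to 0.18 for MVD and −0.18 to 0.060 for SCAP. With siRNA B they were −0.10 to 0.24 for ACAT2, −0.34 to 0.026 for HMGCS1, −0.067 to 0.17 for SQLE, −0.020 to 0.24 for CYP51A1, −0.020 to 0.19 for EBP, −0.17 to 0.14 for STARD4, −0.17 to 0.018 for TMEM97, −0.030 to 0.079 for ACLY and −0.14 to 0.074 for SCD. The cause of these changes was not tested.

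With 47 reads or more in every library, counting error limits CYP51A1 and HSD17B7 most. With 3 libraries a group, a difference that missed the threshold is not shown to be absent.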

Other observations

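For some of these genes replicate 2 stood apart in every group. It held the lowest scaled CPM of its group in all 3 groups for 8 of the 32 kept genes (MVD, IDI1, FDPS, LSS, HSD17B7, EBP, INSIG2 and ACSS2), where 11.4% of all tested genes did the same. Replicate 1 did so for SCAP and FASN (6.31% of all tested genes), and replicate 3 for none (1.64%). Replicate 3 was the highest of its group in all 3 groups for LSS, SREBF1 and SREBF2 (1.95% of all tested genes), replicate 2 for SCAP (12.4%), and replicate 1 for HSD17B7 (5.64%). The replicate 2 libraries were the smallest of their groups, at 19313669 reads in control, 15566530 in siRNA A and 16340856 in siRNA B, and the part of library size in these values was not tested.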
